A study of Mus musculus with 51 samples.

Results

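The genes described here are 10 chaperone and quality-control genes of the endoplasmic reticulum (ER) that belong to the unfolded protein response (UPR): Hspa5, Hsp90b1, Hyou1, Sdf2l1, Dnajb9, Creld2, Herpud1, Edem1, Ern1 and Xbp1. They were chosen by name, with no measured value in the rule, although earlier results of these data were known. They are followed through all tumor and cell groups. They are 10 of the 40077 genes in the tables, 10077 of which stood at 0 in every library. All 10 passed the filter on low counts in each of the 14 comparisons.

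The data are bulk RNA sequencing of 51 mouse libraries, 35 from subcutaneous tumors and 16 from cultured cells. The study varied UBA1, the enzyme that activates ubiquitin before it is passed on to other proteins, by guide RNA, by overexpression and with TAK-243, a small-molecule inhibitor of that enzyme. It asked how the tumors and their response to interferon change.

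Tumors of Myc-CaP, a prostate cancer line, grew in male FVB mice, and tumors of B16-BL6, a melanoma line, grew in C57BL/6 mice. The mice were 6 to 8 weeks old and were injected on both flanks, so that tumors of a group may share a mouse. In the overexpression experiment, 3 Myc-CaP tumors carried an empty vector (EV, genotype WT) and 4 carried Uba1 under a CMV promoter in a lentiviral vector (Uba1 OE, genotype Uba1-overexpression), with blasticidin selection of the cells. In the guide experiments, 3 Myc-CaP tumors with a control guide (sgNC, WT) stood against 7 labelled sgUba1 (Uba1-depletion), and 3 B16-BL6 sgNC tumors (replicates 1, 2 and 4) stood against 4 B16-BL6 sgUba1 tumors. The paper describes more than 1 guide and a clone, and the labels do not say which of these a tumor carries. In the drug experiment, 6 WT Myc-CaP tumors received vehicle and 5 received TAK-243 at 25 mg/kg intravenously.

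All 16 cell libraries are of Myc-CaP cells, in 8 groups of 2. The drug experiment has WT cells labelled control, cells given 50 nM TAK-243, cells given interferon gamma (IFN-γ) and cells given both, with 18 hours of treatment. The guide experiment has control guide cells (NC, WT) and sgUba1 cells (Uba1-depletion), each given PBS or IFN-γ. The files do not say whether the 2 libraries of a group are separate cultures. The paper describes growing gene-depleted cells as sublines from single cells. The labels do not say how many sublines the guide libraries stand for.

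The ER folds secreted and membrane proteins with the help of chaperones, and proteins that fail to fold are moved to the cytosol, tagged with ubiquitin and destroyed there. When unfolded protein builds up, the UPR answers through 3 sensors: the kinase and ribonuclease IRE1, which splices the Xbp1 messenger, the membrane-bound factor ATF6, and the kinase PERK, which slows translation and raises ATF4. Tumor cells that secrete much or grow fast lean on this response, and inhibitors of the ubiquitin system are known to disturb it.

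Summed counts per library ran from 8652097 to 35693203 in tumors and from 12860987 to 38032395 in cells. The 10 genes had from 106 counts (Dnajb9) to 56634 counts (Hsp90b1) in a library, so none was near the detection limit. The EV libraries held 8652097 to 9138696 counts and the Uba1 OE libraries 9232375 to 12569942, so depth and group run together there, and the part of depth was not tested. Levels are given as counts scaled to library size with TMM factors (CPM) for comparisons of 1 gene between samples, and as TPM, which allow for transcript length, wherever genes or experiments are set side by side.

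The lines showed their own markers. The summed level of 8 melanocyte markers was 10451 to 12458 TPM in the B16-BL6 tumors, where Dct was the most abundant and none stood at 0, and at most 16.3 TPM in the Myc-CaP tumors, where Dct stood at 0 in all of them. The summed level of 8 prostate epithelial markers was 1098 to 3285 TPM in the Myc-CaP tumors, where Myc was the most abundant, and 164 to 197 TPM in the B16-BL6 tumors. In the cells that sum was 1478 and 1485 TPM in controls and 492 and 518 TPM with TAK-243.

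Regulatory sequence before the genes was searched for known elements of the UPR. RefSeq (GRCm38.p6) gave the 250 bases before the start for 9 of the 10. The promoter table used here holds no entry for Hyou1. The ER stress response element (ERSE, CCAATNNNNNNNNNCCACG), the ERSE-II (ATTGGNCCACG) and the UPR element (UPRE, TGACGTGG) were searched on both strands. The letters CCACG are common to ERSE and ERSE-II. ERSE occurred 4 times in 3 of 9 windows, those of Hspa5, Hsp90b1 and Creld2, against 37 of 32851 windows of that length (0.113%). ERSE-II occurred in Herpud1 alone of the 9, against 10 of 32851 windows (0.0304%). UPRE occurred in 0 of 9, against 185 of 32851 windows (0.563%). Windows of the other 5 members, Sdf2l1, Dnajb9, Edem1, Ern1 and Xbp1, held none of the 3 strings. A match describes these letters in this window and says nothing of what binds there.

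The Hspa5 match, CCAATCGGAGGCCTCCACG, lies 65 to 47 bases before the RefSeq start on chromosome 2, inside the gene as GENCODE draws it. The other windows with a match follow on the strand of the gene, 5′ to 3′, with the fixed letters of each match in capitals, because they set Hsp90b1 (2 matches, 1 on each strand), Creld2 and Herpud1 apart from the members without one. They lie at chr10:86705510-86705694 (minus strand, the 185 bases outside the gene), chr15:88819396-88819645 (plus strand) and chr8:94386179-94386428 (plus strand).
Hsp90b1: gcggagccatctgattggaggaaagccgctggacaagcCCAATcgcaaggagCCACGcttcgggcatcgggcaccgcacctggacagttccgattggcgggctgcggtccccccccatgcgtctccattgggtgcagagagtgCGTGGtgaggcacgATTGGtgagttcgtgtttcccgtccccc
Creld2: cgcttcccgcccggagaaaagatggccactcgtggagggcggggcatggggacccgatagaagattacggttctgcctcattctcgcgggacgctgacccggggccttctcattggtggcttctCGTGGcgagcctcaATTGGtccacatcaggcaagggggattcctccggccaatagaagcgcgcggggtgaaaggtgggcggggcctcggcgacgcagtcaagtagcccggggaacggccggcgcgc
Herpud1: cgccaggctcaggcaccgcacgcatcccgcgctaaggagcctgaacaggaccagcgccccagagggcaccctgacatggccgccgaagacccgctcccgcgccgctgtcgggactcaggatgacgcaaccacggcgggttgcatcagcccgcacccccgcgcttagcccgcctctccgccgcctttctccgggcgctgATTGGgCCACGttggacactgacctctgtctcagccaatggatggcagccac

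Uba1 itself (ENSMUSG00000001924.15, chromosome X) is given before the 10 genes, since every comparison is named after it. In B16-BL6 tumors it stood at 409.5, 455 and 414 CPM with sgNC and at 208, 220.2, 228 and 247 CPM with sgUba1. The groups did not overlap, and Uba1 fell by 0.92 ± 0.0742 on the log2 scale (SE; 4 of 4 tumors, adjusted p 2.94e-04, edgeR quasi-likelihood test with Benjamini-Hochberg adjustment). In Myc-CaP tumors it stood at 319.6, 325 and 337 CPM with sgNC and, in the 7 labelled sgUba1, at 197, 202, 211, 373, 361, 368 and 383 CPM. Tumors 1 to 3 lay under every sgNC tumor and tumors 4 to 7 above every sgNC tumor, so that the labelled group held 2 separate levels. The difference for the group as labelled was −0.13 ± 0.244 (adjusted p 0.787), and all 7 are kept as the labels have them.

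With overexpression, Uba1 stood at 310.4, 278 and 292 CPM in EV tumors and at 731, 631, 722 and 747 CPM in Uba1 OE tumors. It rose by 1.27 ± 0.0886 (4 of 4 tumors, adjusted p 0.00503), a call that was lost without EV replicate 2 (1.24) or EV replicate 3 (1.27), with a replicate block (1.24) and with all 17 tumors in 1 fit (1.27). In the drug-treated tumors it ran from 311 to 379 CPM with vehicle, median 352, and stood at 340.4, 322, 351, 283 and 368 CPM with TAK-243. Those groups overlapped, with a difference of −0.06 ± 0.0831 (adjusted p 0.752) that turned to 0.01 on the TPM scale.

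In cells, Uba1 stood at 452 and 445 CPM in controls and at 594 and 565 CPM with TAK-243, a rise of 0.37 ± 0.0304 (2 of 2 libraries, adjusted p 5.68e-12). With IFN-γ in both groups it stood at 543 and 561 CPM without the drug and at 643 and 628 CPM with it, a rise of 0.20 ± 0.0300 (adjusted p 6.04e-07). The guide took it from 533 and 526 CPM to 295 and 283 CPM (−0.87 ± 0.0460, adjusted p 3.71e-07), and under IFN-γ from 585 and 599.7 CPM to 269 and 275 CPM (−1.13 ± 0.0462, adjusted p 5.06e-08). Uba1 RNA was thus higher in every drug-treated cell library, and lower in every guide-treated one, than in the libraries it was compared with.

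By median TPM over all tumors and over all cells, the chaperones were the most abundant of the 10 and Dnajb9 the least. The order differed in some groups. Mean Xbp1 stood above Hyou1 in B16-BL6 sgNC tumors (71.1 and 67.1 TPM) and in B16-BL6 sgUba1 tumors (85.0 and 77.6 TPM). Mean Herpud1 stood above Hyou1 in EV tumors (254 and 243.2 TPM), and mean Edem1 under Dnajb9 in TAK-243 cells (13.8 and 21.7 TPM). Hsp90b1 had the highest median, 791 TPM over the tumors and 568 TPM over the cells. Hspa5 followed with 615 and 419 TPM, and Hyou1 with 203 and 151 TPM. Creld2 (107 and 92.2 TPM), Herpud1 (160.1 and 33.5 TPM), Xbp1 (91.0 and 33.4 TPM), Sdf2l1 (67.5 and 38.9 TPM), Ern1 (53.9 and 31.0 TPM) and Edem1 (40.8 and 18.9 TPM) lay between, and Dnajb9 had medians of 19.9 and 6.93 TPM. All 10 had a higher median in the tumors than in the cells, and the share of all genes that did is not given. The tumor medians pool both lines, while all cells are Myc-CaP. In the B16-BL6 sgNC and sgUba1 tumors, mean Hyou1 (67.1 and 77.6 TPM) and Creld2 (40.6 and 45.8 TPM) stood under every cell group.

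**Figure D1:**
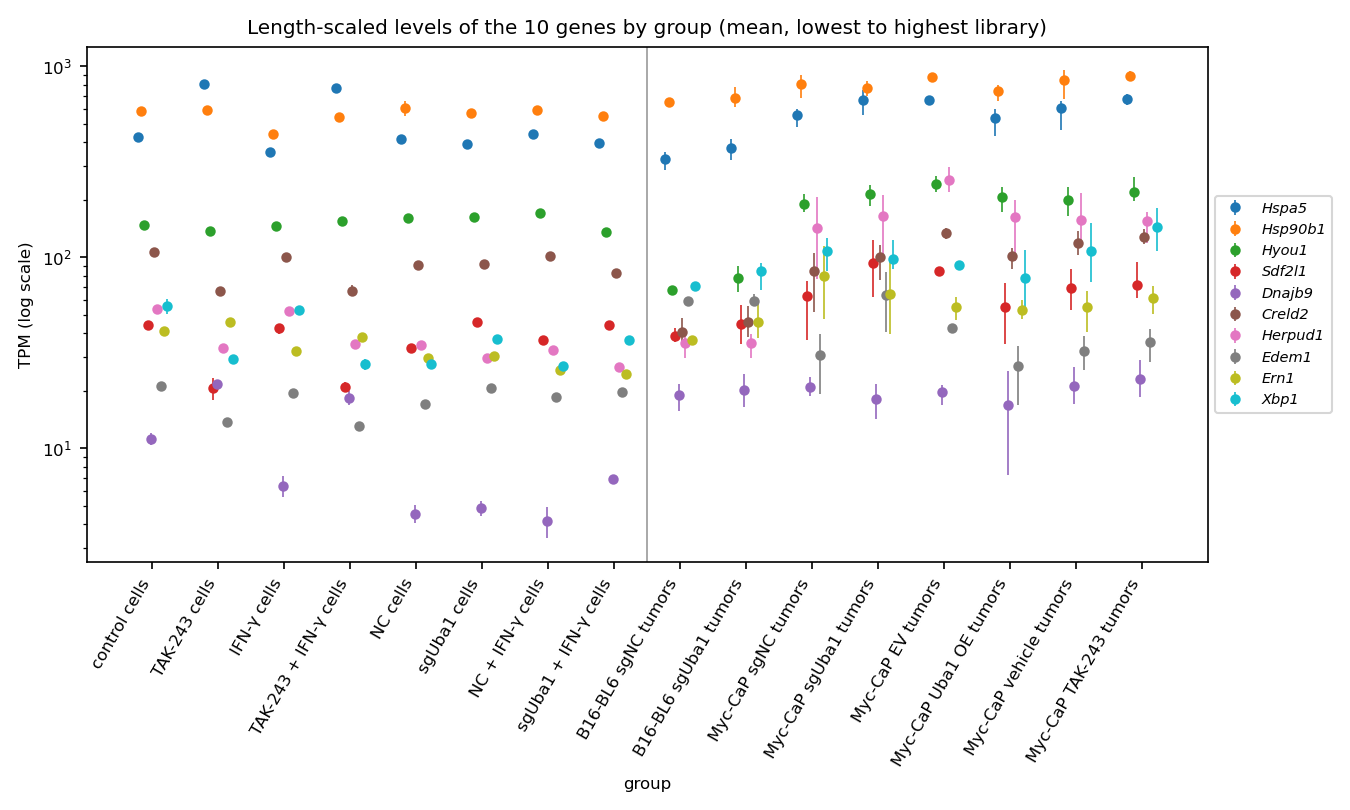
Level of each of the 10 genes in TPM (log scale) in the 8 cell groups and the 8 tumor groups. Points are group means and bars run from the lowest to the highest library, with Herpud1 at 254 TPM in EV tumors and under 54 TPM in every cell group.

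The order of the groups differed from gene to gene. Hspa5 was highest in TAK-243 cells (mean 803 TPM, n = 2) and in cells given TAK-243 with IFN-γ (769 TPM), neither of which overlapped another group. The 6 Myc-CaP tumor groups came next, from 672 TPM (TAK-243 tumors) to 533 TPM (Uba1 OE), each overlapping its neighbour. The other cell groups (441 to 356 TPM) and the B16-BL6 tumors (371 and 328 TPM) were lowest. Hsp90b1 ran from 894 TPM in TAK-243 tumors to 444 TPM in IFN-γ cells, and only that last group stood clear of its neighbour. Hyou1 ran from 243.2 TPM in EV tumors to 67.1 TPM in B16-BL6 sgNC tumors, and both B16-BL6 groups stood below all the others.

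Herpud1 separated the lines and the settings most. It averaged 254 TPM in EV tumors, which overlapped no other group, and 165 to 142 TPM in the other 5 Myc-CaP tumor groups, each overlapping its neighbour. Cells had 53.9 TPM or less and B16-BL6 tumors 35.8 and 35.5 TPM. Edem1 was highest in the Myc-CaP sgUba1 tumors (63.2 TPM, from 40.8 to 83.9), which overlapped the B16-BL6 groups (59.4 and 59.3 TPM), and lowest in cells given TAK-243 with IFN-γ (13.1 TPM). Creld2 ran from 134 TPM in EV tumors to 40.6 TPM in B16-BL6 sgNC tumors, and Sdf2l1 from 93.9 TPM in Myc-CaP sgUba1 tumors to 20.7 TPM in TAK-243 cells.

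Dnajb9 lay between 16.8 and 23.0 TPM in all 8 tumor groups, at 21.7 and 18.5 TPM in the TAK-243 cell groups and between 4.17 and 11.2 TPM in the remaining cells. The TAK-243 cells overlapped the tumors on both sides of them in the order. Ern1 ran from 79.7 TPM in Myc-CaP sgNC tumors to 24.5 TPM in sgUba1 cells with IFN-γ, and neighbours in that order overlapped down to the TAK-243 cells (45.6 TPM). Xbp1 ran from 145 TPM in TAK-243 tumors to 27.1 TPM in NC cells with IFN-γ, and all 8 tumor groups stood above all cell groups in the order of means.

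The TAK-243 comparison in cells asks what inhibition of UBA1 does to the cancer cells alone. Of the 10 genes, 8 passed the test, 3 higher (32.3% of all genes tested were higher) and 5 lower (34%), where 66.3% of 14551 genes tested passed. The count is therefore close to the background, and the size and direction of each change carry the description. The median log2 fold change was −0.33 over the 10 genes and 0.03 over all genes tested.

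Among the chaperones, Hspa5 (ENSMUSG00000026864.13) encodes BiP, the main Hsp70-family chaperone of the ER lumen, which also holds the UPR sensors inactive. It stood at 724 and 727 CPM in control cells and at 1369 and 1395 CPM with TAK-243. Both treated libraries lay far above both controls. The rise was 0.93 ± 0.0260 on the log2 scale (2 of 2 libraries, adjusted p 4.04e-23). Hsp90b1, the ER member of the Hsp90 family, stood at 1041 and 1073 CPM in controls and 1080.3 and 1094 CPM with the drug. Those values almost touched, the difference was 0.04 ± 0.0260 (adjusted p 0.173), and it turned to −0.01 or −0.02 without either replicate of TAK-243 or of TAK-243 with IFN-γ. Hyou1, an Hsp70-like protein that exchanges the nucleotide of BiP, stood at 399.7 and 407 CPM in controls and 403 and 372 CPM with the drug. These overlapped (−0.06 ± 0.0333, adjusted p 0.13), although the difference passed with no filter, without TAK-243 replicate 1 (−0.18) and without replicate 1 (−0.11) or 2 (−0.11) of TAK-243 with IFN-γ.

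The co-chaperones went in opposite directions. Dnajb9 (ENSMUSG00000014905.4) encodes a J-domain partner of BiP. It stood at 11.4 and 11.2 CPM in control cells and at 28.4 and 31.5 CPM with TAK-243. The treated libraries were well clear of the controls, a rise of 1.40 ± 0.101 (2 of 2 libraries, adjusted p 3.32e-13) that was the largest of the 10. Sdf2l1 (ENSMUSG00000022769.9), whose lumenal product works with J-domain partners of BiP, stood at 28.2 and 26.0 CPM in controls and at 14.4 and 11.2 CPM with the drug. Both drug libraries lay well under both controls, and Sdf2l1 fell by 1.06 ± 0.111 (2 of 2, adjusted p 1.02e-09). Creld2 (ENSMUSG00000023272.4), a lumenal protein with EGF-like repeats, went from 84.6 and 84.2 CPM to 53.4 and 53.6 CPM. It fell by 0.66 ± 0.0579 (2 of 2, adjusted p 2.61e-11), with replicates closer to each other than 1 CPM.

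In ER-associated degradation, Herpud1 (ENSMUSG00000031770.16) is a membrane protein with a ubiquitin-like domain that helps assemble the complex moving proteins out of the ER. It stood at 65.4 and 63.6 CPM in control cells and at 40.3 and 41.5 CPM with TAK-243. The groups stood apart, and Herpud1 fell by 0.66 ± 0.0647 (2 of 2 libraries, adjusted p 2.73e-10). Edem1 (ENSMUSG00000030104.9), which directs misfolded glycoproteins to that route, went from 79.2 and 86.2 CPM to 52.9 and 56.5 CPM. It fell by 0.60 ± 0.0573 (2 of 2, adjusted p 1.52e-10), and again no control library came near the treated ones.

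Of the regulators, Ern1 (ENSMUSG00000020715.9) encodes IRE1, and Xbp1 (ENSMUSG00000020484.19) the transcription factor made once IRE1 has spliced its messenger. Counts per gene cannot tell spliced from unspliced Xbp1. Xbp1 stood at 55.8 and 65.5 CPM in controls and at 30.2 and 35.1 CPM with TAK-243, lower in both libraries. It fell by 0.90 ± 0.0813 (adjusted p 4.36e-11). Ern1 stood at 113 and 117 CPM in controls and at 125 and 127 CPM with the drug, narrowly apart. It rose by 0.13 ± 0.0406 (2 of 2, adjusted p 0.00781), a call that was lost with DESeq2, on the TPM scale and without any of control replicate 1 (0.09), either replicate of TAK-243 (0.08 and 0.07) or either of TAK-243 with IFN-γ (0.08 and 0.07).

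**Figure D2:**
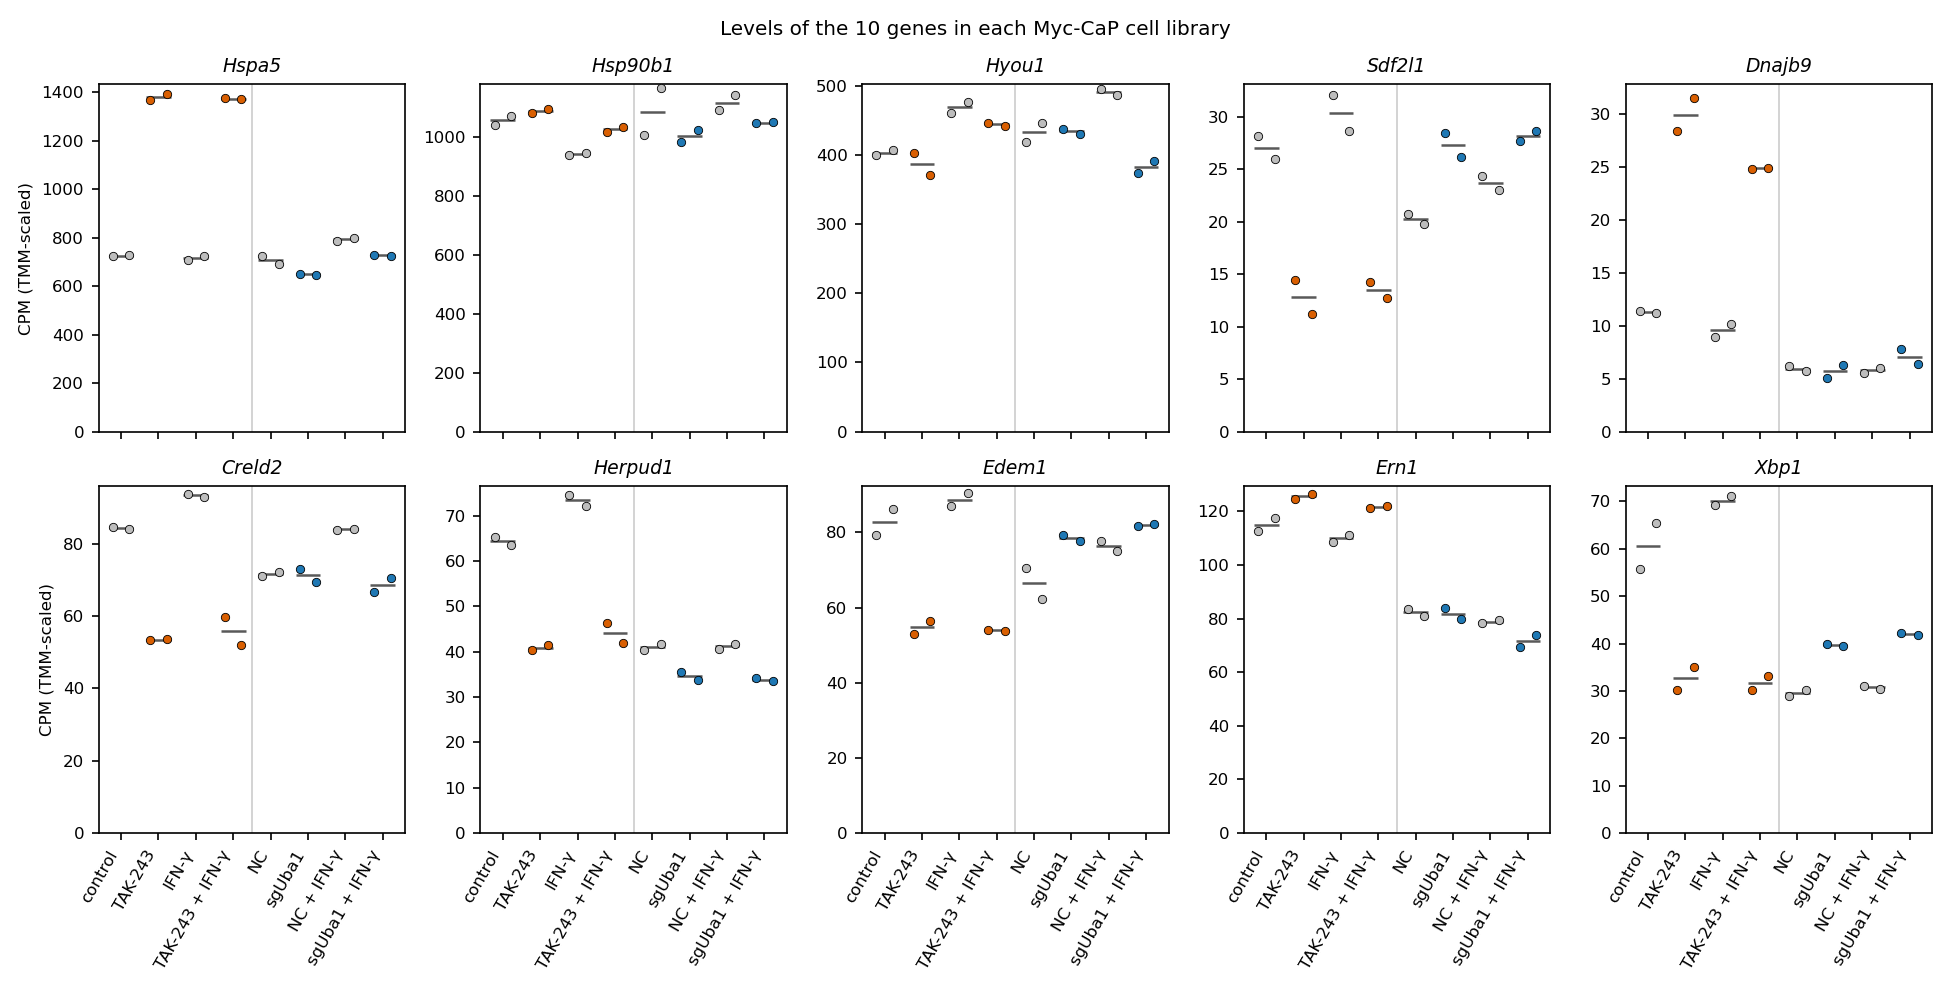
CPM of the 10 genes in each of the 16 Myc-CaP cell libraries, with a point per library, a line at each group mean and the drug and guide experiments to the left and right of the gray rule. Hspa5 and Dnajb9 stand high in all 4 libraries with TAK-243 (orange), where Sdf2l1, Creld2, Herpud1, Edem1 and Xbp1 stand low within the drug experiment. In CPM, which were scaled within each experiment, some libraries of the guide experiment are lower still for Herpud1 and Xbp1. In TPM the lowest library is of the guide experiment for Herpud1 (26.4 TPM) and of the drug experiment for Xbp1 (25.6 TPM).

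The same question can be asked in cells that all received IFN-γ, with IFN-γ cells as controls. All 10 genes passed the test, 4 higher (32% of all genes tested were higher) and 6 lower (36.2%), against 68.2% of genes tested. The median log2 fold change was −0.40 over the 10 genes and 0.02 over all genes, and the all-gene median moved by 0.10 and 0.16 on the TPM scale with pseudocounts of 1 and 0.1. This comparison has its own controls, and the values follow member by member.

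Hspa5 stood at 708 and 726 CPM with IFN-γ and at 1376 and 1370.5 CPM with both agents, a rise of 0.94 ± 0.0260 (2 of 2 libraries, adjusted p 2.79e-23). Dnajb9 stood at 8.94 and 10.1 CPM and then at 24.8 and 24.9 CPM, a rise of 1.38 ± 0.108 (2 of 2, adjusted p 1.75e-12). Both genes were clear of their controls in every library. Xbp1 went from 69.2 and 71.1 CPM to 30.2 and 33.2 CPM and fell by 1.15 ± 0.0799 (2 of 2, adjusted p 1.28e-13). Sdf2l1 went from 32.0 and 28.6 CPM to 14.3 and 12.7 CPM and fell by 1.17 ± 0.108 (2 of 2, adjusted p 7.03e-11). Neither gene had a treated library near its controls. Creld2 (−0.75), Herpud1 (−0.73) and Edem1 (−0.72) were also lower in 2 of 2 libraries, with adjusted p of 2.19e-12 (Edem1), 9.35e-13 (Creld2) and 1.28e-11 (Herpud1).

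The other 3 genes changed little under both agents. Hsp90b1 rose by 0.12 ± 0.0261 (2 of 2 libraries, adjusted p 1.07e-04), from 939 and 945 CPM to 1019 and 1035 CPM. Ern1 rose by 0.15 ± 0.0410 (2 of 2, adjusted p 0.00245), from 109 and 111 CPM to 121 and 122 CPM, a call lost without IFN-γ replicate 1 (0.12). Hyou1 went from 461 and 476 CPM to 446 and 443 CPM, a fold change of −0.08 ± 0.0328 (2 of 2, adjusted p 0.0394) that turned to 0.09 on the TPM scale. Its call was lost without IFN-γ replicate 2 (−0.06) and without replicate 1 (−0.09) or 2 (−0.08) of TAK-243 with IFN-γ, and with DESeq2 or RLE factors.

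Whether IFN-γ altered the drug effect was tested by an interaction term. No gene of the 10 passed (0 of 10, against 2.38% of genes tested), with 2 at an unadjusted p under 0.05 (14.8% of all genes) and 0 passing with DESeq2 (1.5% of all genes). The median was −0.05 over the 10 genes and −0.04 over all genes, and without TAK-243 replicate 2 the count was 1. The difference furthest from 0 was that of Xbp1, at −0.24 ± 0.115 (adjusted p 0.32). On the TPM scale the all-gene median of this comparison moved by 0.15 and 0.18, and the 10 genes turned from 3 positive and 7 negative to 9 positive and 1 negative.

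IFN-γ alone, against control cells, gave smaller differences. Of the 10 genes 5 passed, 4 higher (19.6% of genes tested were higher) and 1 lower (9.39%), against 29% of genes tested, with a median of 0.12 beside 0.04. Hyou1 rose by 0.22 ± 0.0329 (2 of 2 libraries, adjusted p 7.56e-06) and Hsp90b1 changed by −0.17 ± 0.0261 (2 of 2, adjusted p 1.23e-05). Xbp1 (0.21, adjusted p 0.0292), Herpud1 (0.19, adjusted p 0.0185) and Creld2 (0.15, adjusted p 0.0382) were higher in 2 of 2 libraries. On the TPM scale the all-gene median moved by −0.18 and −0.23, and all 10 genes were then negative, Hyou1 (−0.02), Xbp1 (−0.06), Herpud1 (−0.04) and Creld2 (−0.08) included.

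With DESeq2 2 of the 10 passed, and Creld2, Herpud1 and Xbp1 lost their calls. Single libraries decided these calls too, and 2 or 3 of the 10 passed whichever of the 8 libraries was left out. The call of Creld2 was lost without any 1 of the 8 (0.11 to 0.15). Herpud1 lost its call without control replicate 2, IFN-γ replicate 1, or either replicate of the 2 groups with TAK-243 (0.15 to 0.17). Xbp1 lost it without control replicate 1 (0.10), either IFN-γ replicate or either replicate of the 2 groups with TAK-243 (0.18 to 0.23).

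The guide comparison sets cells with less Uba1 against NC cells. Differences between sublines cannot be told apart from an effect of the guide in it. Of the 10 genes 4 passed, 3 higher (16.2% of genes tested were higher) and 1 lower (13.6%), against 29.7% of 15530 genes tested. The median was −0.01 over the 10 genes and −0.00 over all genes. Of the 10 fold changes 4 were positive and 6 negative, which turned to 7 and 3 on the TPM scale. The 2 NC libraries stood further apart than any other pair of cell libraries of a group, at 18.1 beside 1.84 to 5.81 when their counts are compared by chi-square over its degrees of freedom.

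Xbp1 stood at 28.9 and 30.1 CPM in NC cells and at 40.0 and 39.4 CPM in sgUba1 cells. Every guide library was above every control, and Xbp1 rose by 0.43 ± 0.0562 (2 of 2 libraries, adjusted p 2.17e-04). Sdf2l1 went from 20.8 and 19.8 CPM to 28.5 and 26.2 CPM, a rise of 0.43 ± 0.0712 (2 of 2, adjusted p 9.15e-04). Edem1 went from 70.6 and 62.2 CPM to 79.2 and 77.7 CPM, a rise of 0.24 ± 0.0578 (2 of 2, adjusted p 0.00855). These 3 genes were the ones lower with TAK-243 by the test above, alongside Creld2 and Herpud1. Herpud1 stood at 40.5 and 41.8 CPM and then at 35.5 and 33.8 CPM, and fell by 0.25 ± 0.0565 (2 of 2, adjusted p 0.00656).

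Hspa5 stood at 723 and 692 CPM in NC cells and at 651 and 647 CPM in sgUba1 cells, apart but not past the threshold (−0.12 ± 0.0440, adjusted p 0.054). It passed with DESeq2, limma-voom, RLE factors and a replicate block, and without NC replicate 1 (−0.09) or 2 (−0.16). Edem1 lost its call on the TPM scale, with only the groups compared and without sgUba1 replicate 1 (0.20) or 2 (0.25), and Herpud1 on the TPM scale and without sgUba1 replicate 2 (−0.22). Without sgUba1 replicate 2 the count of genes that passed was 2. The other 5 genes had ranges that overlapped between NC and sgUba1 cells.

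Under IFN-γ the guide comparison gave 7 of 10 genes past the threshold, 2 higher (17% of genes tested were higher) and 5 lower (22.4%), against 39.4% of genes tested. The median was −0.11 over the 10 genes and 0.01 over all genes. Without NC with IFN-γ replicate 2 the count was 4.

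Xbp1 stood at 31.1 and 30.4 CPM in NC cells with IFN-γ and at 42.3 and 41.8 CPM in sgUba1 cells with IFN-γ, a rise of 0.45 ± 0.0553 (2 of 2 libraries, adjusted p 7.43e-05). Hyou1 went from 496 and 487 CPM to 374 and 392 CPM, with no overlap. It fell by 0.36 ± 0.0495 (2 of 2, adjusted p 1.71e-04). Creld2 went from 83.9 and 84.1 CPM to 66.8 and 70.5 CPM and fell by 0.29 ± 0.0471 (2 of 2, adjusted p 5.06e-04). Herpud1 went from 40.6 and 41.7 CPM to 34.1 and 33.5 CPM and fell by 0.29 ± 0.0560 (2 of 2, adjusted p 0.0018). The direction for Xbp1 and Herpud1 was thus that seen without IFN-γ, while Hyou1 and Creld2 overlapped there.

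Sdf2l1 rose by 0.25 ± 0.0693 under IFN-γ (2 of 2 libraries, adjusted p 0.0131), from 24.3 and 23.0 CPM to 27.7 and 28.6 CPM. That call was lost without NC with IFN-γ replicate 2 (0.21). Hspa5, at 786 and 799 CPM and then at 728 and 725 CPM, changed by −0.13 ± 0.0440 (2 of 2, adjusted p 0.0406), and Ern1, at 78.2 and 79.3 CPM and then at 69.2 and 73.8 CPM, by −0.14 ± 0.0494 (2 of 2, adjusted p 0.0438). The calls of Hspa5 (−0.14 to −0.07) and Ern1 (−0.15 to −0.04) were lost without any replicate of sgUba1, of sgUba1 with IFN-γ or of NC with IFN-γ. Both were also lost with DESeq2, RLE factors, no filter and on the TPM scale, and that of Ern1 with limma-voom and a replicate block too.

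The interaction of guide and IFN-γ passed for 2 of 10 genes, both lower, against 4.64% of genes tested, with medians of −0.09 and −0.03. The guide effect on Hyou1 with IFN-γ minus that without was −0.36 ± 0.0699 (adjusted p 0.0241), as its 2 libraries with both were the lowest of 8. For Creld2 it was −0.29 ± 0.0670 (adjusted p 0.0412), and its 2 NC libraries with IFN-γ were the highest of 8. Both calls were lost without any replicate of sgUba1, of sgUba1 with IFN-γ or of NC with IFN-γ (Hyou1 −0.38 to −0.27, Creld2 −0.29 to −0.19), and on the TPM scale. The count was then 0 of 10, and that over all genes went from 720 to between 14 and 103 in the omissions and to 12 and 4 on the TPM scale. Creld2 also lost its call with DESeq2 and RLE factors.

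IFN-γ against PBS in NC cells passed for 1 of 10 genes, against 3.88% of genes tested, with medians of 0.11 and 0.04. Creld2 stood at 71.0 and 72.3 CPM with PBS and at 83.9 and 84.1 CPM with IFN-γ, a rise of 0.23 ± 0.0475 (2 of 2 libraries, adjusted p 0.0321). The count fell to 0 without any replicate of NC with IFN-γ, of sgUba1 or of sgUba1 with IFN-γ (Creld2 0.19 to 0.23), with DESeq2, RLE factors, only the groups compared and on the TPM scale, and was 5 or 4 without NC replicate 1 or 2. Over all genes the count of 603 went to between 35 and 106 in those omissions with 0, and to 2721 and 1483 without NC replicate 1 and 2.

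Drug and guide were compared by testing the difference of their effects, each against the controls of its own experiment and without IFN-γ. Of the 10 genes 7 passed, 2 higher with the drug (25.2% of genes tested were higher) and 5 lower (30.2%), against 55.3% of genes tested, with medians of −0.26 and 0.03. Hspa5 (1.03 ± 0.0483, adjusted p 1.06e-12) and Dnajb9 (1.44 ± 0.173, adjusted p 6.09e-07) were higher. Sdf2l1 (−1.51 ± 0.140, adjusted p 1.68e-08), Xbp1 (−1.35 ± 0.107, adjusted p 1.77e-09) and Edem1 (−0.86 ± 0.0855, adjusted p 4.50e-08) were lower, and these rose with the guide and fell with the drug in 2 of 2 libraries each. Creld2 (−0.67, adjusted p 4.93e-07) and Herpud1 (−0.43, adjusted p 1.39e-04) were lower too. The experiments also differ in depth, with 12860987 to 16793889 counts a library for the drug and 26768564 to 38032395 for the guide. They set 18 hours of drug on WT cells against cells edited with a guide, and their controls differed in level. Mean Xbp1 was 55.5 TPM in control and 27.8 TPM in NC cells, Sdf2l1 44.4 and 33.4 TPM, and Edem1 21.2 and 17.1 TPM. The part of these differences was not tested.

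Other genes of the pathway were read from 6 lists. With TAK-243 in cells, where 32.3% of all genes were higher and 34% lower, 4 of 10 tested UPR sensors and transcription factors were higher and 4 lower, with Ddit3 at 3.87, Bhlha15 at 3.36 and Creb3l2 at −1.02 (log2 fold change). Of 27 other ER chaperones and folding enzymes, 10 were higher and 13 lower, among them Creld1 (1.88), Sdf2 (1.10) and Sil1 (−1.76). In ER-associated degradation 8 of 24 were higher and 10 lower (Herpud2 1.33, Ngly1 −2.98, Edem2 −1.08), and in ER translocation and the secretory pathway 9 of 25 and 11 (Kdelr3 1.30, Sec62 0.76, Ssr4 −0.91). In the PERK arm and integrated stress response 5 of 14 were higher and 8 lower (Atf3 3.31, Ppp1r15a 2.86, Slc7a11 −1.99), and among calcium store and ER stress outputs 5 of 8 and 2 (Bcl2l11 1.24, Itpr2 −1.53, and Bbc3 with the largest change, from a mean of 1.71 to 6.79 CPM). The medians of the 6 lists ran from −0.16 to 0.43 beside 0.03 for all genes.

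With IFN-γ in both groups (32% of all genes higher, 36.2% lower) the drug gave 3 higher and 4 lower of 10 sensors and factors, 10 and 13 of 27 chaperones, 6 and 12 of 24 degradation genes, 5 and 11 of 25 translocation genes, 5 and 9 of 14 PERK genes and 5 and 2 of 8 outputs. IFN-γ alone (19.6% of all genes higher, 9.39% lower) raised 4 of 10, 10 of 27, 9 of 24, 14 of 25, 8 of 14 and 3 of 8, and lowered 0, 3, 2, 5, 2 and 1. In the interaction of the drug with IFN-γ (2.38% of all genes) no listed gene was higher and 0, 4, 1, 1, 2 and 0 were lower.

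With the guide in cells 12 of 24 degradation genes were higher and 0 lower, beside 16.2% and 13.6% of all genes tested, with Sel1l at 0.45, Derl1 at 0.42 and Rnf139 at 0.39 and a median of 0.15. No gene of the PERK list was higher and 8 of 15 were lower, with Chac1 at −1.98, Slc7a11 at −1.42 and Trib3 at −1.36 and a median of −0.31. Of the sensors and factors 2 of 10 were higher and 2 lower (Wfs1 0.27, Ddit3 −0.57, Atf4 −0.56), of the chaperones 10 of 27 and 4 (Fkbp14 1.09, Ero1l −0.99, Fkbp11 −0.93), of the translocation genes 6 of 25 and 4 (Ssr2 0.29, Sec31a −0.30, Kdelr2 −0.29) and of the outputs 1 of 8 and 2 (Tnfrsf10b 0.32, Itpr2 −1.08, Atp2a2 −0.16). Edem1, Sdf2l1 and Xbp1 rose beside these degradation genes, and Herpud1 did not.

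Under IFN-γ (17% of all genes higher, 22.4% lower) the guide lowered 11 of 15 PERK genes and raised 0 (Chac1 −1.84), raised 8 of 24 degradation genes and lowered 3, and raised 1, 11, 9 and 1 and lowered 3, 9, 5 and 7 of the sensors, chaperones, translocation genes and outputs. Its interaction with IFN-γ (4.64% of all genes) raised 0, 1, 0, 0, 2 and 0 genes and lowered 2, 0, 2, 1, 0 and 2 in the order sensors, chaperones, degradation, translocation, PERK and outputs. IFN-γ in NC cells (3.88% of all genes) raised 0, 2, 2, 3, 1 and 0 and lowered 0, 1, 0, 0, 2 and 0 in that order. The difference between drug and guide (25.2% of all genes higher, 30.2% lower) was higher for 7 of 15 PERK genes and lower for 4, with a median of 0.81, and for the degradation list higher for 4 of 24 and lower for 11, with a median of −0.12. For the other lists it was higher for 3 of 10, 9 of 27, 6 of 25 and 5 of 9 and lower for 4, 13, 10 and 1.

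**Figure D3:**
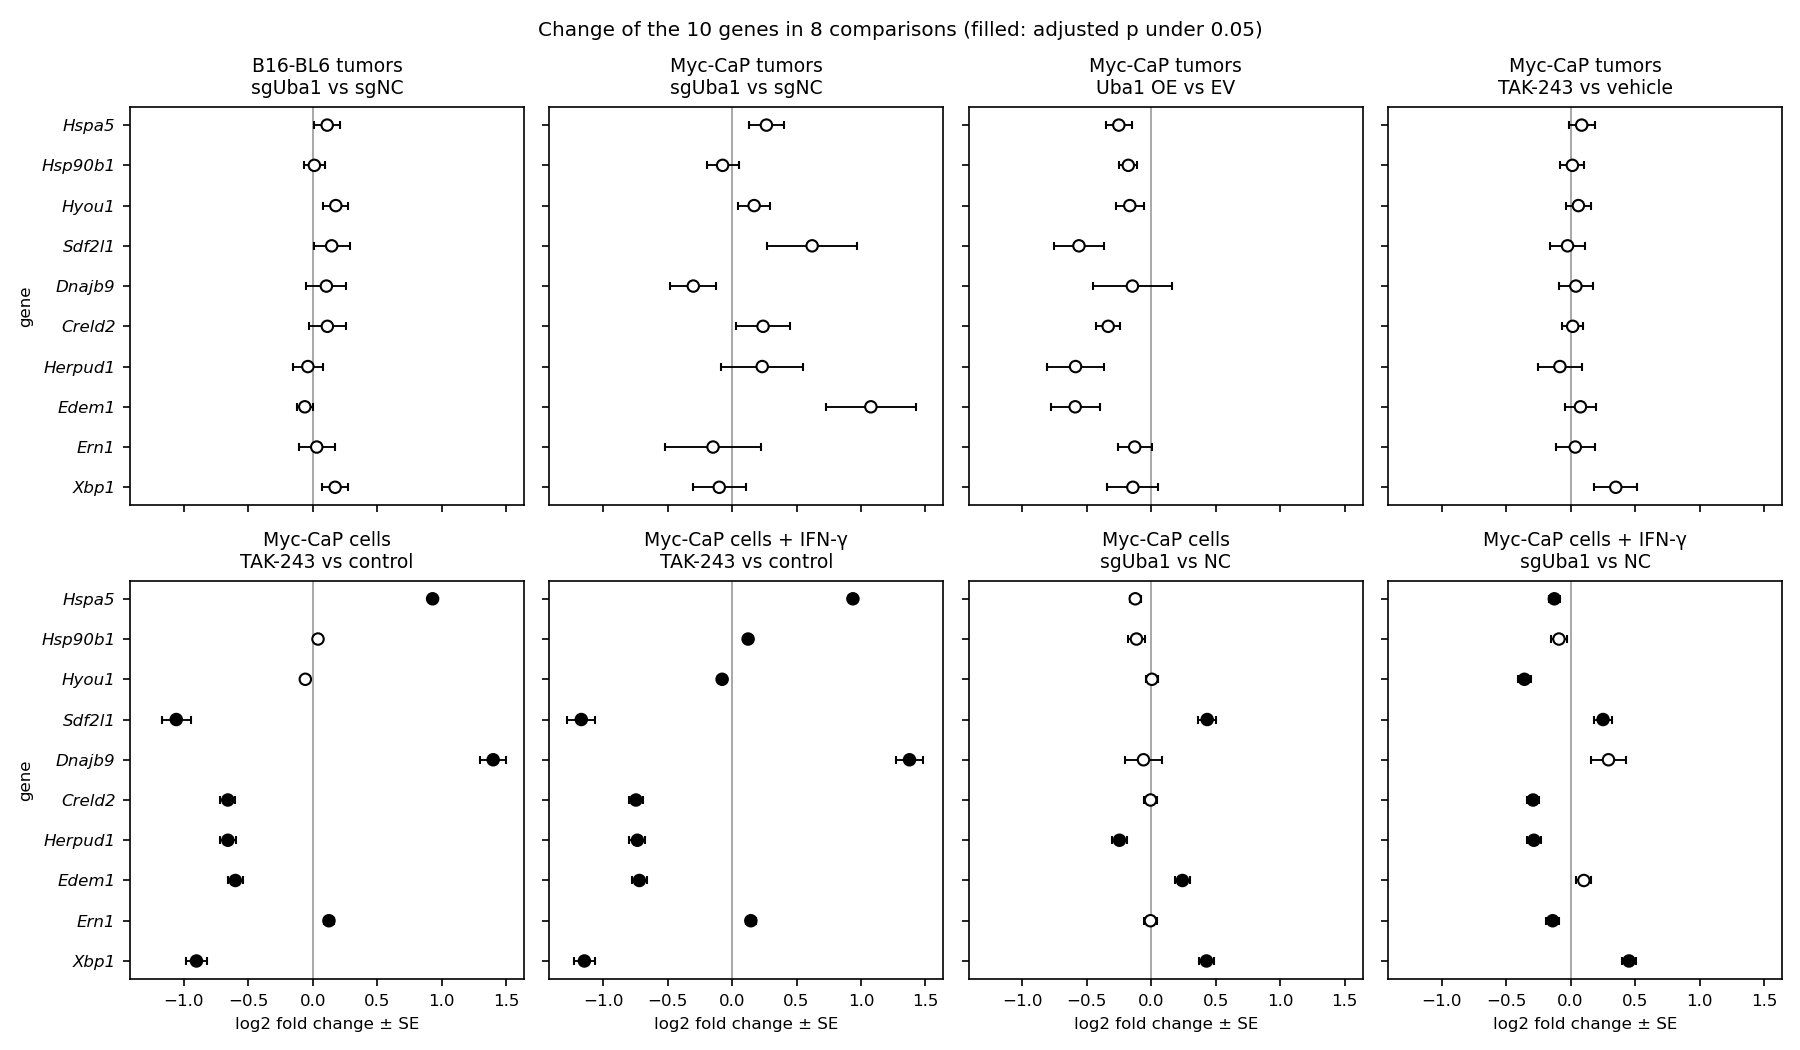
Log2 fold change with its SE for the 10 genes in 4 tumor and 4 cell comparisons, filled where the adjusted p is under 0.05. Filled points appear in the cells alone, and in the Uba1 OE panel all 10 open points lie under 0.

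In tumors the RNA comes from cancer cells and host cells together, so fewer cells of a type and less RNA per cell cannot be told apart. The B16-BL6 guide comparison asks what Uba1 loss does in the melanoma model. No gene of the 10 passed (0 of 10, against 0.724% of 17539 genes tested by edgeR), with 0 at an unadjusted p under 0.05 (16.3% of all genes) and 0 passing with DESeq2 (2.98%). The median was 0.11 over the 10 genes and 0.01 over all genes. Hspa5 stood at 515, 660.1 and 590.1 CPM with sgNC and at 657, 560.0, 624 and 704 CPM with sgUba1, largely overlapping (0.11, adjusted p 0.608). Hyou1 stood at 179, 197 and 186 CPM and at 219.6, 181, 204 and 244 CPM, with 3 of 4 tumors above every control (0.18 ± 0.0962, adjusted p 0.384). The lowest and highest fold changes of the 10 were −0.06 and 0.18.

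In the Myc-CaP guide comparison, 0 of 10 genes passed (3.04% of 16202 genes tested did by edgeR), with 1 at an unadjusted p under 0.05 (23.7% of all genes) and 1 passing with DESeq2 (11.1% of all genes). The median was 0.20 over the 10 genes and 0.00 over all genes. Edem1 stood at 154, 69.6 and 125 CPM with sgNC and, in the 7 labelled sgUba1, at 150.2, 143, 175, 342, 326, 310.3 and 267 CPM. Tumors 4 to 7 were the highest of the 10 in this experiment, while tumors 1 and 2 lay among the controls. The difference was 1.08 ± 0.351 (5 of 7 above every control, adjusted p 0.108), and it passed with DESeq2 and in a fit of 17 tumors together.

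Sdf2l1 divided the same tumors, whose 2 sets stood apart over all genes, as given below. It stood at 45.5, 21.2 and 45.1 CPM with sgNC and at 36.4, 34.4, 37.6, 75.6, 81.4, 71.3 and 65.2 CPM in the 7, so that tumors 1 to 3 lay within the controls and tumors 4 to 7 above them (0.62 ± 0.349, adjusted p 0.31). Ern1 stood at 138, 277 and 199.6 CPM with sgNC and at 98.3, 104, 113, 297, 249.9, 219 and 214 CPM in the 7. Here tumors 1 to 3 lay under every control and tumors 4 to 7 within their range or above it. Hspa5 stood at 995, 767 and 996 CPM and at 1050.3, 1034, 1006, 1100.2, 1371, 1224 and 956 CPM, with 6 of 7 above every control (0.27 ± 0.136, adjusted p 0.263). Sdf2l1, Edem1 and Ern1 thus separated tumors 1 to 3 from tumors 4 to 7 as Uba1 did, while Hspa5 did not, its lowest value being that of tumor 7. The 2 sets stood apart over all genes too. By chi-square over its degrees of freedom, pairs across them were at 61.3 to 86.9 and pairs within them at 9.71 to 22.7. The share of all genes that separate these tumors is not given, so the split cannot be called particular to the members. These values describe the samples, with no regrouping and no test.

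**Figure D4:**
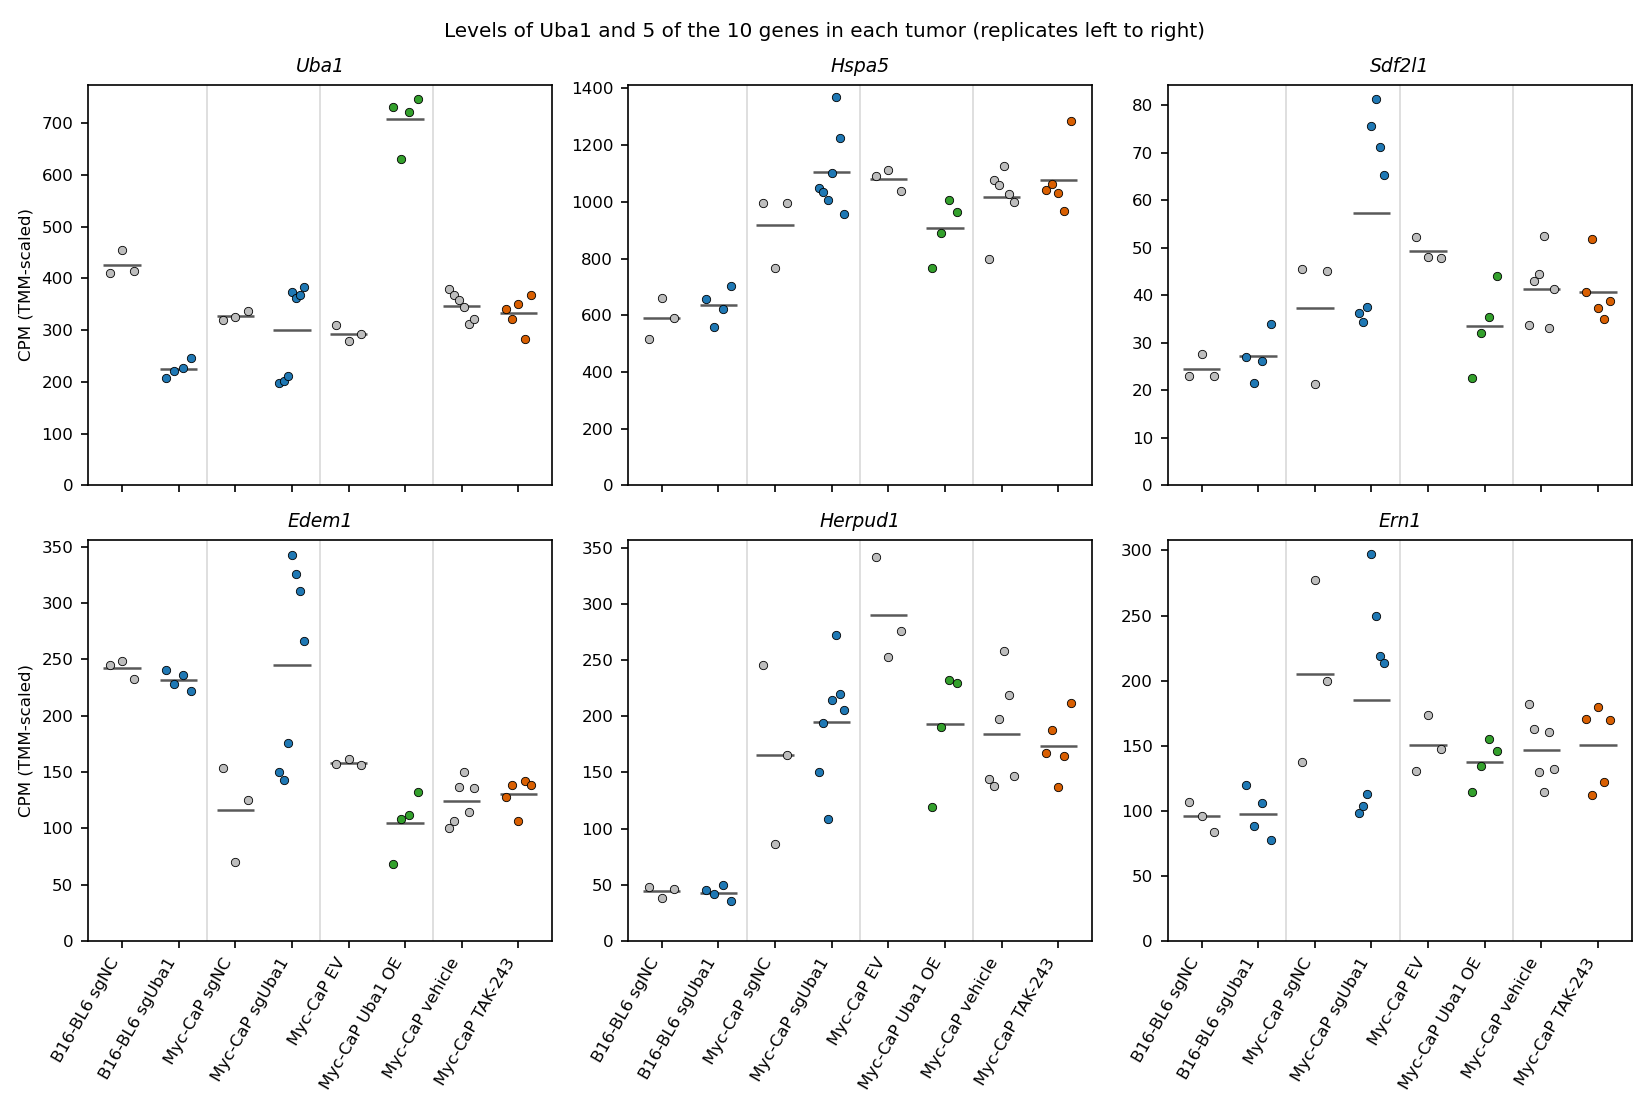
CPM of Uba1, Hspa5, Sdf2l1, Edem1, Herpud1 and Ern1 in each of the 35 tumors, replicates from left to right within a group and a line at each group mean. Among the 7 Myc-CaP tumors labelled sgUba1, the last 4 stand above the first 3 for Uba1, Sdf2l1, Edem1 and Ern1. The first 3 and the last 4 also stand apart over all genes. The share of all genes that separate them is not given, so the split cannot be called particular to the genes shown.

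The remaining members are given as ranges over the 7 tumors, which do not show how those tumors divide. Hsp90b1 ran from 1195 to 1593 CPM, median 1317, against 1150 to 1590 CPM with sgNC. Hyou1 ran from 487 to 678 CPM, median 550, against 439 to 568 CPM. Herpud1 ran from 109 to 272 CPM in the 7, median 205, around sgNC tumors at 246, 86.2 and 165 CPM. Creld2 ran from 61.0 to 91.9 CPM, median 77.3, against 77.0, 38.5 and 81.8 CPM, and sgNC replicate 2 was the lowest of its group for 8 members, all but Ern1 and Xbp1. Over all genes that library stood apart, at 83.8 and 62.1 from replicates 1 and 3 by chi-square over its degrees of freedom. Replicates 1 and 3 were at 13.2 from each other. Xbp1 ran from 77.8 to 139.6 CPM, median 91.6, against 89.7, 124 and 116 CPM. Dnajb9 ran from 18.3 to 32.8 CPM, median 21.8, with 5 of 7 under every control (31.5, 25.5 and 29.2 CPM).

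The overexpression comparison asks the converse. By edgeR 0 of 10 genes passed, where 4 of 14853 genes tested (0.0269%) did, and 0 passed with DESeq2. At an unadjusted p under 0.05 there were 6 of the 10, beside 18.2% of all genes tested, and DESeq2 passed 4.63% of all genes. All 10 log2 fold changes were negative under each of the scalings tried, with a median of −0.22 over the 10 genes and 0.00 over all genes. In 6 genes every Uba1 OE tumor lay under every EV tumor, as it did for 10.1% of all genes tested. Marker sums moved with the group as well: the prostate list was 2225 to 2558 TPM in EV tumors and 1478 to 2050 TPM in Uba1 OE tumors (Myc alone averaging 2034 and 1354 TPM, with 0 of 5 markers tested passing), T and NK cell markers 14.9 to 19.3 TPM and 5.21 to 8.96 TPM, neither with overlap, and muscle markers had medians of 15.7 and 103 TPM. The T and NK sum reached 7.59 TPM in cultured NC cells, within the range of the Uba1 OE tumors. The part of all these markers was not tested.

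Of these 6, Edem1 stood at 157, 161 and 156 CPM in EV tumors and at 68.3, 108, 111 and 132 CPM in Uba1 OE tumors, with a narrow EV group and a wide OE group (−0.59 ± 0.190, adjusted p 0.181). Without Uba1 OE replicate 1 Edem1 passed (−0.43), which made the count 1 of 10, while the count over all genes went from 4 to 386. Sdf2l1 stood at 52.3, 48.0 and 47.9 CPM and at 22.5, 32.0, 35.5 and 44.0 CPM (−0.56 ± 0.196, adjusted p 0.205), again with replicate 1 lowest. Herpud1 stood at 342, 253 and 276 CPM and at 119, 190.4, 233 and 229.6 CPM (−0.59 ± 0.222, adjusted p 0.228), and Creld2 at 104, 94.7 and 106 CPM and at 71.7, 79.2, 83.8 and 87.2 CPM (−0.33 ± 0.0932, adjusted p 0.153). Replicate 1 was the lowest OE tumor in each. Over all genes it stood apart from the other OE tumors, at 24.9 to 49.4 by chi-square over its degrees of freedom. Those others were at 7.10 to 17.3 from each other.

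The chaperones were the other two of the 6. Hspa5 stood at 1089, 1113 and 1039 CPM in EV tumors and at 767, 890.4, 1006 and 966 CPM in Uba1 OE tumors (−0.25, adjusted p 0.246). Hsp90b1 stood at 1506, 1515 and 1504 CPM and at 1237, 1311, 1364 and 1418 CPM (−0.18 ± 0.0705, adjusted p 0.244). In both genes the highest OE tumor came close to the lowest EV tumor without reaching it. The other 4 members overlapped, with Hyou1 at 578 to 674 CPM and 496 to 622 CPM, Ern1 at 131 to 173 CPM and 115 to 155 CPM, Xbp1 at 87.3 to 92.3 CPM and 56.6 to 112 CPM, and Dnajb9 at 21.6 to 25.3 CPM and 10.5 to 31.7 CPM.

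The difference for the tumors labelled sgUba1 and that for overexpression were compared directly in Myc-CaP, each against its own controls. Of the 10 genes 1 passed, against 10.3% of 16502 genes tested, with medians of 0.43 and 0.02. Edem1 differed by 1.66 ± 0.447 (adjusted p 0.0286), with 5 of 7 tumors labelled sgUba1 above every sgNC tumor and 4 of 4 Uba1 OE tumors under every EV tumor. Of those 5, tumors 4 to 7 have Uba1 at 361 to 383 CPM, above every sgNC tumor, so their label and their Uba1 RNA differ. Its call was lost without any of EV replicates 1 to 3, Uba1 OE replicate 1 or sgNC replicates 2 and 3 (1.40 to 1.72) and with a replicate block, where the count was 0 of 10. Hspa5 (0.52 ± 0.182, adjusted p 0.0791) and Sdf2l1 (1.18 ± 0.454, adjusted p 0.105) did not pass, although Hspa5 did on the TPM scale.

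The TAK-243 comparison in tumors asks what the drug does in the animal. By edgeR 0 of 10 genes passed (0.145% of 17299 genes tested did), with 0 at an unadjusted p under 0.05 (15% of all genes) and 0 passing with DESeq2 (3.11%), and medians of 0.04 and 0.01. Hspa5 ran from 797 to 1127 CPM with vehicle, median 1045, and stood at 1042, 1063, 1031, 969 and 1284 CPM with TAK-243. The groups overlapped apart from replicate 5, which was above every vehicle tumor (0.09 ± 0.101, adjusted p 0.715). Xbp1 ran from 81.3 to 149 CPM with vehicle, median 105, and stood at 146, 106, 141, 166 and 159 CPM, with 2 of 5 above every vehicle tumor (0.35 ± 0.165, adjusted p 0.344). Dnajb9 ran from 21.3 to 33.8 CPM, median 26.7, and stood at 31.9, 22.5, 26.4, 28.1 and 28.0 CPM, all within the vehicle range. Tumors and cells were not tested against each other.

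The pathway lists in tumors are to be read beside the 0.724% (B16-BL6), 3.04% (Myc-CaP guide), 0.0269% (overexpression) and 0.145% (TAK-243) of all genes that passed. In the B16-BL6 comparison 1 of the 6 lists had any, with Tnfrsf10b lower (−0.48) among 10 outputs. In the Myc-CaP guide comparison Fkbp14 was higher (0.99) among 27 chaperones and Vcp (0.50) among 24 degradation genes, and 3 of 15 PERK genes were lower, Slc7a11 (−1.40), Psat1 (−0.97) and Cebpg (−0.86). With overexpression and with TAK-243 no gene of the 6 lists passed by edgeR. The difference between guide and overexpression, where 10.3% of all genes passed, was higher for 4 of 27 chaperones and lower for 1 (Ero1lb 1.98, Fkbp14 1.53, Dnajc3 0.90), higher for 3 of 24 degradation genes (Selenos 1.22, Ufd1 1.10, Vcp 0.70) and 3 of 25 translocation genes (Ssr1 0.67, Sec61a1 0.66, Srprb 0.50), and lower for 6 of 16 PERK genes (Chac1 −2.90, Trib3 −2.79, Slc7a11 −1.97).

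Markers of host cells moved with some of these values. The summed level of 10 macrophage and myeloid markers, of which Lyz2 was the most abundant and none stood at 0 in any tumor, was 327, 339 and 593 TPM in Myc-CaP sgNC tumors and 555 to 993 TPM, median 614, in the 7 labelled sgUba1, where 4 of 10 passed as higher. In EV tumors it was 456 to 564 TPM and in Uba1 OE tumors 142 to 562 TPM, median 345, with 0 of 10 passing. It was 241 to 381 TPM with vehicle and 242 to 661 TPM with TAK-243, where 1 of 10 was higher, and 137 to 238 TPM and 232 to 302 TPM in the B16-BL6 groups. The difference between guide and overexpression passed for 5 of 10. Their part in the members' values was not tested.

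Fibroblast markers summed to 135 to 1067 TPM in tumors (Col1a1 or Col3a1 highest) and endothelial markers to 50.1 to 202 TPM (Eng, Egfl7 or Cdh5 highest), and no gene of these lists passed in the 4 tumor experiments, nor did any of the muscle, prostate or melanocyte lists. In the difference between guide and overexpression 1 of 10 endothelial and 1 of 5 prostate markers were higher and 1 of 3 melanocyte markers was lower. T and NK cell markers (Cd3d highest) summed to 9.45 to 12.5 TPM in Myc-CaP sgNC tumors and 12.98 to 24.5 TPM in those labelled sgUba1, and to 6.18 to 8.34 TPM and 8.82 to 11.6 TPM in the B16-BL6 groups, neither pair overlapping, with 3 of 6 higher in the difference between guide and overexpression, and B and plasma cell markers to at most 3.98 TPM, with Ms4a1 at 0 in 4 of the tumor groups. Skeletal muscle markers ran from 10.8 to 548 TPM between tumors, highest in a Uba1 OE tumor (Acta1). With TAK-243 in cells 3 of 6 prostate markers were higher and 3 lower, and 4 of 5 muscle markers were higher, at sums of 16.8 TPM or less. In cells the macrophage sum went from 2.89 and 3.91 TPM in controls to 10.1 and 11.4 TPM with TAK-243, where Cd68, the most abundant, averaged 2.24 and 7.24 TPM and 2 of 3 markers tested were higher. Adgre1, C1qb and C1qc stood at 0 in all 16 libraries. T and NK cell markers summed to 4.94 and 4.98 TPM in control cells. The cell groups ran from at most 3.02 TPM (IFN-γ cells) to at most 7.59 TPM (NC cells). Mean Cd3d was 1.79 TPM (IFN-γ cells) to 4.78 TPM (NC cells), and 3.43 TPM (Uba1 OE) to 6.51 TPM (sgUba1) in Myc-CaP tumors. The tumor sums of this list thus cannot be read as host cells alone. The part of these markers was not tested.

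Levels of the 10 genes were also compared with each other across libraries. Over the 35 tumors, with group means subtracted, 44 of 45 pairs correlated positively, with a median Pearson r of 0.52. Hspa5 and Hsp90b1 reached 0.91 and Sdf2l1 and Edem1 0.90, and the lowest was Creld2 with Ern1 at −0.21. The points share their experiment's library preparation and scaling. They include the 7 Myc-CaP tumors labelled sgUba1, and Myc-CaP sgNC replicate 2 and Uba1 OE replicate 1, each low for several members. The part of these tumors was not tested. Correlation between other genes is not given, so these values cannot be called particular to the members.

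Over the 16 cell libraries, with experiment means subtracted, 21 of 45 pairs were positive, and r ran from −0.96 (Dnajb9 with Creld2) to 0.96 (Edem1 with Xbp1). Hspa5 went with Dnajb9 (0.94) and against Sdf2l1 (−0.93), Xbp1 (−0.92) and Edem1 (−0.91). These libraries fall into groups with and without TAK-243, so the values describe that contrast more than variation within a group. Hspa5 and Sdf2l1 thus correlated at 0.67 in tumors and at −0.93 in cells.

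**Figure D5:**
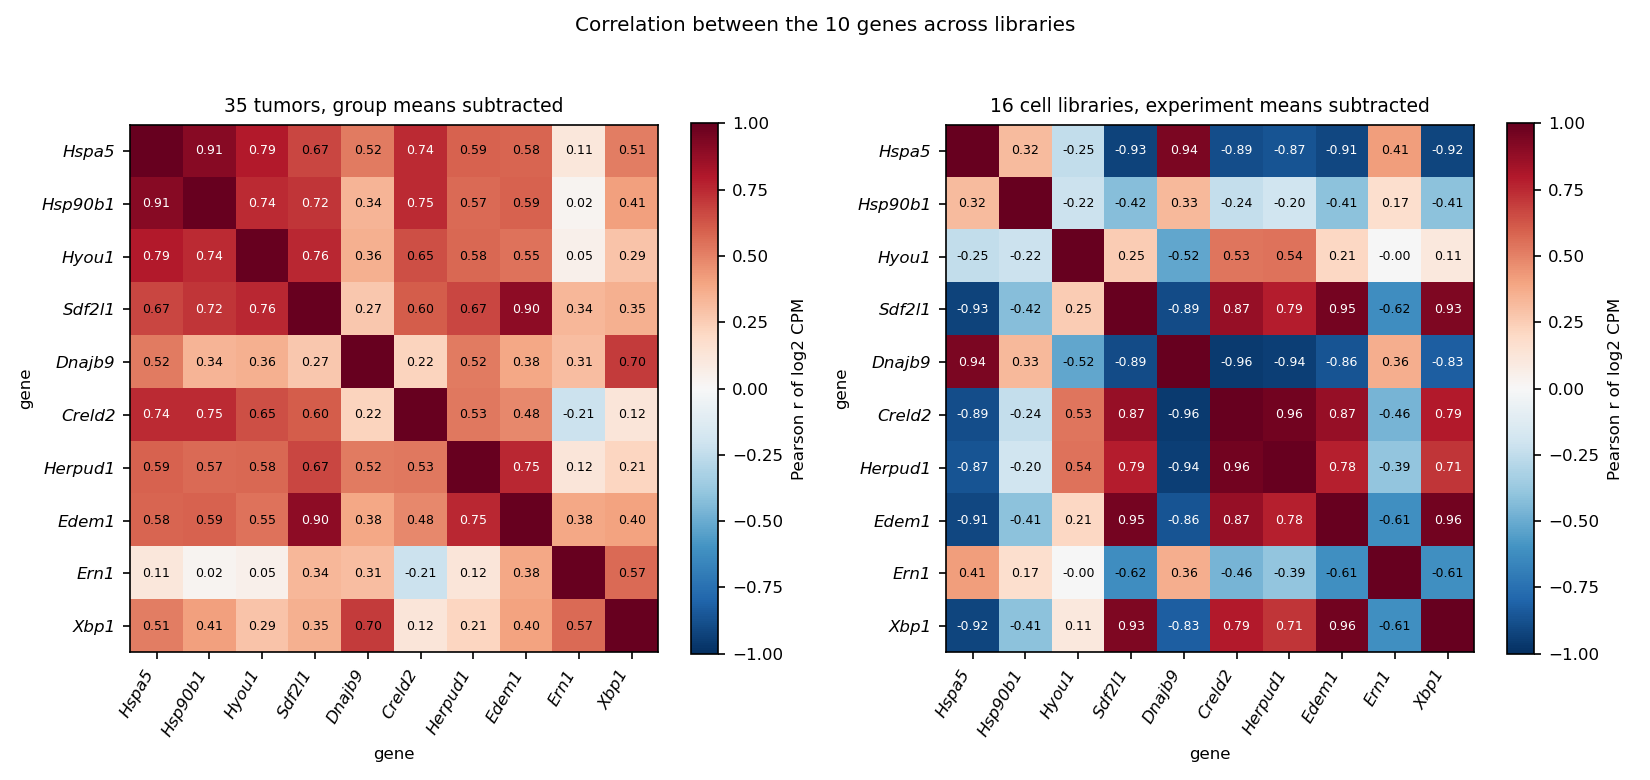
Pearson r of log2 CPM between each pair of the 10 genes over 35 tumors (left, group means subtracted) and 16 cell libraries (right, experiment means subtracted). Nearly all pairs are positive in the tumors, and the cells show a block of Hspa5 and Dnajb9 against Sdf2l1, Creld2, Herpud1, Edem1 and Xbp1.

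The genes outside the 10 with the pattern most like that of Hspa5 were, over the 35 tumors and among 13321 genes, Calr (r 0.85), Pdia3 (0.82), Rpn2 (0.80), Ddost (0.77) and Srpr (0.76). Over the 16 cell libraries and among 11250 genes they were Mapre1, Polg2, Emp1, Glud1 and Ghitm, all at 0.99. Among the members, Ern1 was the least like Hspa5 in tumors (0.11) and Sdf2l1 in cells.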

How the data were processed

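RNA of 51 libraries was measured by sequencing. The authors deposited expected counts per gene (kallisto, mm10, versions not given), which were rounded to whole numbers, and the authors also deposited TPM. The labels name poly-A selection and the paper removal of ribosomal RNA. Each tumor experiment was fitted alone and the 8 libraries of a cell experiment together, with filterByExpr, TMM factors and the edgeR quasi-likelihood test, two-sided, Benjamini-Hochberg adjusted over all genes tested at 0.05. SE is the absolute log2 fold change over the square root of F. R 4.3.3, edgeR 4.0.16, limma 3.58.1, DESeq2 1.42.0, Python 3.11.15, pandas 2.3.3 and matplotlib 3.10.9 were used. In simulated counts, log2 changes of 2 up or down were put into 200 genes, at a dispersion of 0.05 for every gene. Of these, 97 (drug minus guide) to 194 were recovered by comparison, 0 with the wrong sign, with 3 to 13 false calls. No member changed by as much, and recovery of smaller changes was not tested. For correlation log2 CPM had a prior count of 2, and genes sought for likeness a mean log2 CPM of at least 1. Alternatives were DESeq2, limma-voom, RLE factors, no filter, limma on log2 TPM with pseudocounts of 1 and 0.1, a replicate block, other sets of samples in the fit and each library left out.

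Named genes are the 10 members, Uba1, up to 3 genes per list and comparison with the largest change among those that passed without overlap, and the 5 most like Hspa5. The members and lists were chosen with earlier results of these data known. The p-values measure the spread between these samples only. Library totals limit the smallest difference that can be seen, and the lowest count of a member was 106.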

Additional observations from a re-analysis of the deposited data

Results flagged for a closer look

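The effect of the guide in cells differed between cells with and without IFN-γ for 2 of the 10 genes, by the interaction term of the edgeR quasi-likelihood test. The effect with IFN-γ minus that without was −0.36 on the log2 scale for Hyou1 and −0.29 for Creld2. Both calls were lost when single libraries were left out.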

How the results depend on the processing

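Each fold change printed was set against each alternative. Of these pairs, leaving aside omitted libraries, 503 kept direction and side of the threshold, 40 lost the call, 9 gained one and 12 reversed. With libraries left out, 584 pairs kept both, 72 lost the call, 6 gained one and 4 reversed, and a fold change near the threshold counts many times. The cause was not tested.

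On the TPM scale (pseudocounts 1 and 0.1) Uba1 with TAK-243 in tumors was 0.0127 and 0.0128, and Hyou1 under both agents 0.0872 and 0.0877. IFN-γ alone gave Hyou1 −0.0193 and −0.0194, Creld2 −0.0827 and −0.0834, Herpud1 −0.0420 and −0.0427, and Xbp1 −0.0616 and −0.0626. With libraries left out, Hsp90b1 with TAK-243 in cells ran from −0.01635 to 0.0537.

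Some counts of the 10 genes past the threshold moved as follows. Calls lost by Ern1 with TAK-243, by Hyou1 under both agents and by Hspa5 and Ern1 with the guide under IFN-γ are given with those genes. With DESeq2 the count was 1 for the guide in Myc-CaP tumors, 2 for IFN-γ against control, 0 for IFN-γ in NC cells and 1 for the guide's interaction with IFN-γ. RLE factors gave 0 for IFN-γ in NC cells and 1 for that interaction. In NC cells IFN-γ gave 2 with limma-voom, 4 with no filter and 0 with only the groups compared. On the TPM scale, at either pseudocount, the count was 2 and 2 for the guide in cells, 0 and 0 for IFN-γ in NC cells, 0 and 0 for the guide's interaction, and 2 and 2 for guide against overexpression. All 17 tumors in 1 fit gave 1 for the guide in Myc-CaP tumors. With a replicate block, whose numbers need not mark matched samples, guide against overexpression gave 0.

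With each library left out in turn, the counts ran from 0 to 0 for the guide in B16-BL6 tumors, in Myc-CaP tumors and for TAK-243 in tumors, from 0 to 1 for overexpression, from 0 to 1 for guide against overexpression, from 7 to 8 for TAK-243 in cells, from 9 to 10 with IFN-γ, from 2 to 3 for IFN-γ alone, from 0 to 1 for the drug's interaction, from 2 to 6 for the guide in cells, from 4 to 9 under IFN-γ, from 0 to 5 for IFN-γ in NC cells, from 0 to 3 for the guide's interaction and from 7 to 8 for drug against guide. Where that leaves a cell group with 1 library, its spread is taken to be that of the other groups.

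Depth sets the least change that can be seen in Dnajb9, with counts from 106, and Sdf2l1, with counts from 140, more than in the chaperones, with counts from 4360. The files do not record which tumors share a mouse or which cell libraries share a culture.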
